A study of Rattus norvegicus with 14 samples.

Results

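Cytosolic ribosomal protein genes encode the protein parts of the ribosomes that translate nuclear messenger RNA. They were taken as every gene with a probe set of its own whose symbol starts with Rpl or Rps and a number, together with Rplp0, Rplp1, Rplp2 and Rpsa, and without the S6 kinase genes of the Rps6k family. The choice used symbols and mean signal but no difference between groups, though it was made with earlier results of these data known. It gave 48 genes of the 14217 genes with a single-gene probe set, of which 33 belong to the large subunit and 15 to the small subunit by their symbols. For the 6 genes with more than 1 probe set, the brightest probe set on average was used. Rplp1, Rplp2, Rps27a, Rps19, Rpl10, Rps27, Rps4x and Rpl22l1 had no single-gene probe set and were not analysed here. Gene expression was measured on 14 arrays, 1 for each biological replicate, in male Wistar rats. The 11 tumors were malignant peritoneal mesotheliomas that arose after 1 injection into the peritoneal cavity of multiwalled carbon nanotubes (MWCNT) or of amosite asbestos, each in artificial lung medium. Of these, 2 followed MWCNT B, 3 each followed MWCNT C and MWCNT D, and 3 followed amosite. By type, 5 tumors were sarcomatoid, 3 biphasic and 3 epithelioid. The 3 controls were tumor-free peritoneal tissue from rats that the labels call sham-treated and the methods call untreated. Ages are not given in the labels. All samples were pieces of whole tissue.

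The cytosolic ribosome is built from a small subunit, which reads the messenger RNA, and a large subunit, which forms the peptide bond. Its proteins are needed in near equal amounts, and growing cells spend much of their transcription and translation on them. Most of their messenger RNAs start with a C and a run of pyrimidines, the terminal oligopyrimidine (TOP) motif, through which the mTORC1 kinase pathway controls their translation. A few genes have close relatives with a narrower use. Rpl3l is the form of Rpl3 known from skeletal and heart muscle, and Rps27l is a p53 target related to Rps27.

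The sequence at the transcription start is shown because the TOP motif is the best known feature shared by these genes, and it was not used to choose them. RefSeq promoter entries of the rat build GRCr8 matched 43 of the 48 genes. A C at the annotated start followed by at least 4 pyrimidines (C or T, on the transcribed strand) was found in 12 of the 43, or 27.9%, against 2.63% of 27457 rat promoter entries. A run of at least 8 pyrimidines within 25 bases on either side of the start was found in 30 of the 43 (69.8%), against 19.3% of all promoter entries. The letters CTTTCC occurred in the same 50 bases in 11 of the 43 (25.6%), against 2.27% of all entries, and the reverse complement GGAAAG in 0 of the 43, against 2.17%. CTTTCC can lie inside a pyrimidine run, so these counts overlap. The TOP start depends on the exact base annotated as the start, and the absence of a match says only that the letters are not at that base. Examples with a TOP start follow, 15 bases before and 15 from the annotated start, with the pyrimidines that run on from the start in capitals.
Rpl19 (chr10:83519049-83519078, plus strand): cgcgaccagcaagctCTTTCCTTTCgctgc
Rpl37a (chr9:81748076-81748105, plus strand): gcatgcccgttgcgtCTCTTCCTCTTCggg
Rps15 (chr7:10068101-10068130, minus strand): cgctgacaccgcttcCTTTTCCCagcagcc
Rpl22 (chr5:168117946-168117975, plus strand): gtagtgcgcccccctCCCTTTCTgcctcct
Rplp0 (chr12:46718376-46718405, minus strand): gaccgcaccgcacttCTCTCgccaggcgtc
The next entries have no TOP start by this definition. Rpl3, Rpl12 and Rpl18 are among the genes with the largest rises in tumors, Rpl3l had the largest fall, and Rps27l did not pass the test.
Rpl3 (chr7:113507976-113508005, minus strand): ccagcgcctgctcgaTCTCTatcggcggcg
Rpl12 (chr3:36661925-36661954, plus strand): ggagcaacatccgtcTTTTCggctttcggt
Rpl18 (chr1:105325255-105325284, plus strand): tctggacctggtctagcaggaggcgccatc
Rpl3l (chr10:14258431-14258460, plus strand): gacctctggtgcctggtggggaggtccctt
Rps27l (chr8:76443643-76443672, plus strand): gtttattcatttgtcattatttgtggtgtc
Of 37 matched genes that are not close relatives of another ribosomal protein gene, the 12 with a TOP start had a median tumor minus control difference of 0.78 (0.30 to 1.05) on the log2 scale. The 25 others had a median of 0.91 (0.48 to 2.34). No test was run between them. Of the 6 relatives (Rpl3l, Rpl7l1, Rpl26l1, Rpl39l1, Rps27l and Rps4y2), 0 had a TOP start.

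Values are log2 of the deposited array signal plus 1, and a difference of 1 is a 2-fold change. The signal of a probe set depends on its own probes, so levels are compared between samples and never between genes. Median signals per array ran from 129 to 154 among tumors and from 96.9 to 104 among controls, and the median tumor minus control difference over all 31042 probe sets was 0.34, which falls to -0.10 when each array is centred on its median. Skeletal muscle genes, 26 of 27 of them lower in tumors, held 6.29% to 6.45% of the summed signal in control tissue, against 0.0198% to 0.0422% in tumors. Control means of 10 mesothelial genes ran from 1.83 for Krt18 to 8.25 for Pdpn. Msln went from a mean of 4.98 in the controls to 12 in tumors, and Wt1 from 4.14 to 11.25. Calb2 was at 7.38 in the controls and 7.44 in tumors. Of 10 mesothelial genes, 7 rose in tumors, as did 14 of 14 genes of dividing cells and 10 of 11 macrophage genes. Of 10 adipocyte genes 2 fell, a share near that of all probe sets. At an adjusted p below 0.05, 37.3% of all probe sets rose and 17.5% fell. Pancreatic enzymes held 5.13% of the signal in amosite replicate 1 and 3.96% in MWCNT D replicate 2, against at most 0.0139% in the other tumors. In MWCNT D replicate 2, Msln was at 7.92 against a tumor mean of 12. The beta-actin control probes gave a 3' minus 5' log2 difference of 0.30 to 0.60 in tumors and -1.24 to -0.65 in controls, while that of the Gapdh probes was -0.03 to 0.18 in tumors and 0.10 to 0.16 in controls. The part of these differences in the results below was not tested. In whole tissue, a change in the share of a cell type and a change in the RNA of each cell cannot be told apart.

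In the tumors, nearly all ribosomal protein genes were higher than in the control peritoneum. Of the 48 genes, 43 rose and 2 fell at an adjusted p below 0.05, against a background of 37.3% of all probe sets that rose and 17.5% that fell. The median difference was 0.83, against 0.34 over all probe sets. Most rises were below 2-fold: 12 genes rose by more than 2-fold (24.5% of all probe sets did) and 1 fell by more (10.4% of all probe sets did). In 41 of the 48 genes every tumor lay above every control, which was the case for 28.1% of all probe sets, and in 1 gene every tumor lay below (14.1% of all probe sets). The 39 genes with a mean log2 signal of at least 12, between 12.05 and 13.77, all rose, with a median difference of 0.86. Of the 9 dimmer genes, at 5.32 to 10.05, 4 rose and 2 fell. The large subunit genes had a median difference of 0.75 (30 of 33 rose) and the small subunit genes of 0.92 (13 of 15 rose).

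**Figure D1:**
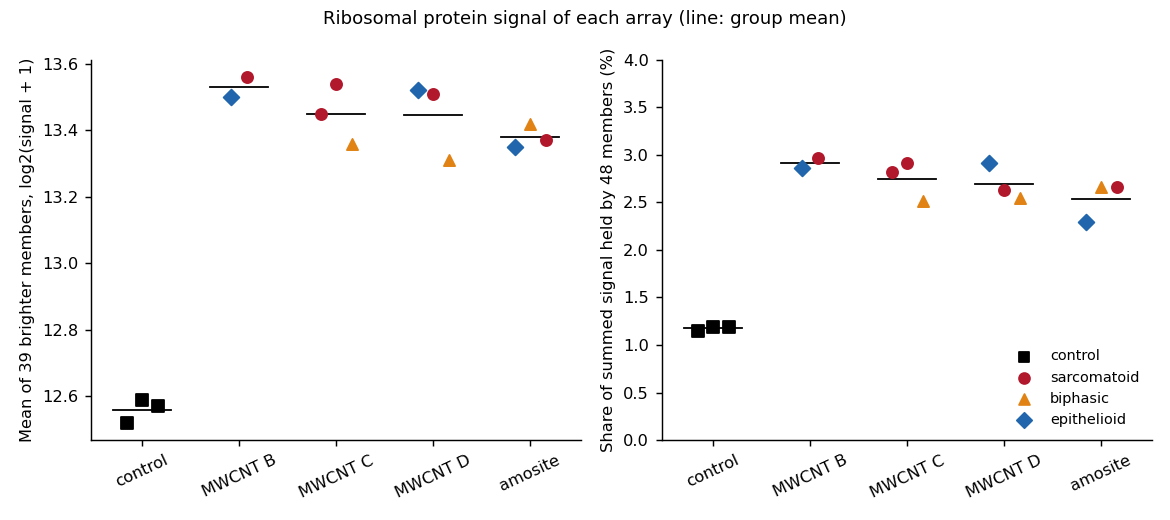
The mean log2(signal + 1) of the 39 brighter ribosomal protein genes (left) and the share of the summed array signal held by all 48 genes in percent (right) are plotted with 1 point per array, grouped by inducer and marked by tumor type, with a line at each group mean. The 3 controls lie at 12.52 to 12.59 on the left and at 1.15% to 1.19% on the right, and all 11 tumors lie above them, at 13.31 to 13.56 and 2.29% to 2.97%.

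The rise was similar from tumor to tumor, as the plot of the array means shows. The mean of the 39 brighter genes was 12.52, 12.59 and 12.57 in the 3 controls and ranged from 13.31 in MWCNT D replicate 3 to 13.56 in MWCNT B replicate 2. All 48 genes together held 1.15%, 1.19% and 1.19% of the summed signal in control tissue, against 2.29% to 2.97% in tumors. The SD of a brighter gene over the 11 tumors had a median of 0.12 and at most reached 0.27. Across the 11 tumors, pairs of the 39 genes had a median Pearson correlation of 0.36 over 741 pairs, and of 0.60 when each array was centred on its median. These pairs share the same arrays and their scaling, so the correlation is a description.

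The count depends on how arrays are scaled. With each array centred on its median, 28 of the 48 genes rose, against 22.4% of all probe sets. All 28 were among the 43, so that 15 of the risers no longer passed, and Rpl3l and Rps4y2 fell. The median difference was 0.38 against -0.10 over all probe sets. Only 2 genes then rose by more than 2-fold. With quantile normalization 42 rose, against 24.7% of all probe sets, and 2 fell. The median was 1.10 against -0.02 over all probe sets, and 32 rose by more than 2-fold. Among all probe sets that passed, 68.0% were higher in tumors as deposited, 42.3% after centring and 47.7% after quantile normalization. More probe sets thus fell than rose after either rescaling, and the share that fell as deposited does not apply there. In all 3 scalings the median of the ribosomal protein genes thus lay above that of all probe sets.

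**Figure D2:**
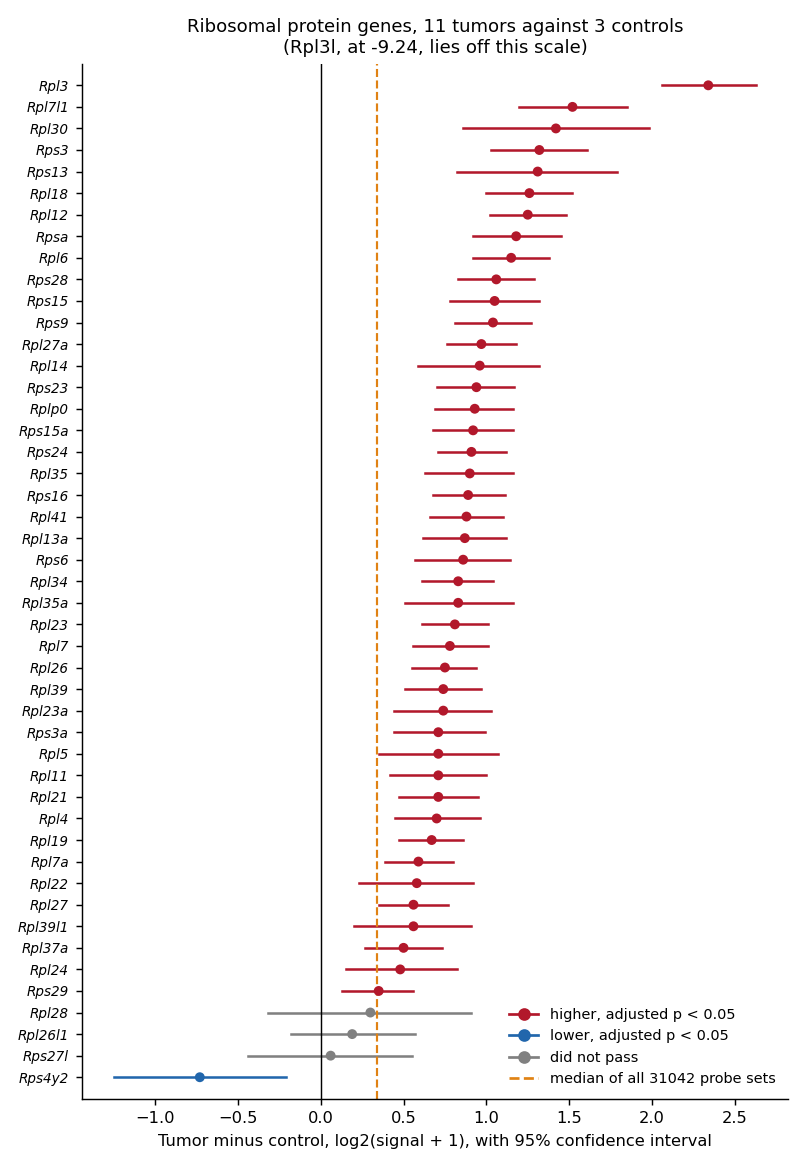
The tumor minus control difference in log2(signal + 1) is plotted for 47 genes, ranked, with 95% confidence intervals from limma, and the dashed line marks the median of all probe sets at 0.34. The 43 red genes rose, Rps4y2 in blue fell, the 3 grey genes did not pass, and Rpl3l, at -9.24, lies outside the axis.

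Rpl3, a large subunit protein at the site of peptide bond formation (probe set 1371300_at, chr7:113491943-113508115 in GRCr8), had the largest rise. Its level was 11.04, 11.64 and 11.35 in control tissue and 13.50 to 13.82 across the tumors, with a median of 13.75. All tumors lay far above all controls, and the tumors spread less than the controls. The difference was 2.34 ± 0.13 (SE, n = 11 and 3), a 5.07-fold rise with an adjusted p of 4.7e-09. A second probe set of Rpl3 differed by 2.25.

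Other large subunit genes with large rises were Rpl30, Rpl18, Rpl12 and Rpl6. Rpl18 was at 11.93 to 12.04 in the controls against 12.94 to 13.44 in the tumors, a rise of 1.26 ± 0.12 (adjusted p = 1.1e-06). Rpl12, part of the base of the ribosomal stalk, was at 12.24 to 12.38 in control tissue and 13.36 to 13.69 across the tumors, a rise of 1.25 ± 0.11 (adjusted p = 3.9e-07). Neither gene overlapped between the groups. Rpl6 rose by 1.15 ± 0.11 (adjusted p = 8.4e-07). The dim probe set of Rpl30 was at 7.18 to 7.41 in the controls against 7.52 to 9.08 in the tumors, and rose by 1.42 ± 0.26 (adjusted p = 3.9e-04). Its lowest tumor was MWCNT D replicate 2, and the rise was 1.54 without that array.

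In the small subunit, the largest rises were those of Rps3, Rps13, Rpsa and Rps28. Rps3, which lies at the entry of the messenger RNA and also acts in DNA repair, was at 11.75, 11.84 and 11.92 in control tissue and 12.78 to 13.40 across the tumors. All tumors were higher, and the rise was 1.32 ± 0.14 (adjusted p = 2.2e-06). Rpsa, known also as the laminin receptor, was at 11.95, 12.09 and 12.13 in the controls against 12.98 to 13.46 in the tumors, a rise of 1.18 ± 0.12 (adjusted p = 2.6e-06). Its other probe sets differed by 1.29 and 1.55. Rps28 rose by 1.06 ± 0.11 (adjusted p = 2.0e-06) and Rps13, on a dim probe set at 4.92 to 5.72 in control tissue and 6.17 to 7.36 across the tumors, by 1.31 ± 0.23 (adjusted p = 2.4e-04). The remaining genes that rose by more than 2-fold, named after their values were seen, were Rps15 (1.05) and Rps9 (1.04).

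Several other genes are known for roles beyond the core of the ribosome. Rplp0, the core of the stalk that recruits elongation factors and a common reference gene for RT-qPCR, was at 12.49, 12.58 and 12.59 in the controls against 13.28 to 13.72 in the tumors. The groups did not overlap, and the rise was 0.93 ± 0.11, or 1.90-fold (adjusted p = 8.1e-06). Rps6, the substrate of the S6 kinases, rose by 0.86 ± 0.13 (adjusted p = 8.9e-05), and Rpl13a, another reference gene, by 0.87 ± 0.12 (adjusted p = 2.6e-05). Rpl5 and Rpl11, which bind 5S rRNA and inhibit Mdm2, rose by 0.71 ± 0.17 (adjusted p = 0.0024) and 0.71 ± 0.13 (adjusted p = 4.8e-04). After centring of the arrays, Rpl5 and Rpl11 were both at 0.26 and did not pass (adjusted p = 0.24 and 0.18). Of the 6 measured proteins of the 5S particle or known to bind Mdm2, 5 rose and Rps27l did not pass, and 3 rose after centring. All 10 measured genes of Diamond-Blackfan anemia, an inherited shortage of red cells from loss of ribosomal protein genes, rose, with a median of 0.79, and 5 rose after centring. The other 9 genes on that list had no single-gene probe set. Of all probe sets, 37.3% rose as deposited and 22.4% after centring.

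The smallest rise that passed, named after the values were seen, was 0.35 for Rps29, and this gene was at -0.10 after centring and at 1.09 after quantile normalization. Rpl22 rose by 0.58 ± 0.16 (adjusted p = 0.0076) but was at 0.13 with an adjusted p of 0.58 after centring. Rpl28, on a dim probe set, was at 5.58 to 5.83 in control tissue and 5.21 to 6.83 across the tumors, and did not pass (0.30 ± 0.29, adjusted p = 0.40). The tumors lay on both sides of the controls.

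Rpl3l, the muscle form of Rpl3 (probe set 1376884_a_at, chr10:14258446-14268989), had the only large fall. It was at 13.13, 13.06 and 13.00 in the controls against 3.13 to 4.60 in the tumors, with a median of 3.76. No tumor came near a control. The difference was -9.24 ± 0.27 (SE, adjusted p = 1.5e-12) on the log2(signal + 1) scale and -8.18 on the log2(signal + 16) scale, since the tumor signals were close to the lower end of the array. The skeletal muscle genes moved with it, from a mean of 13.83 to 13.94 in the controls to 5.35 to 5.65 in the tumors, and their part in this result was not tested. The paired genes Rpl3 and Rpl3l thus went in opposite directions in every inducer group and tumor type.

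**Figure D3:**
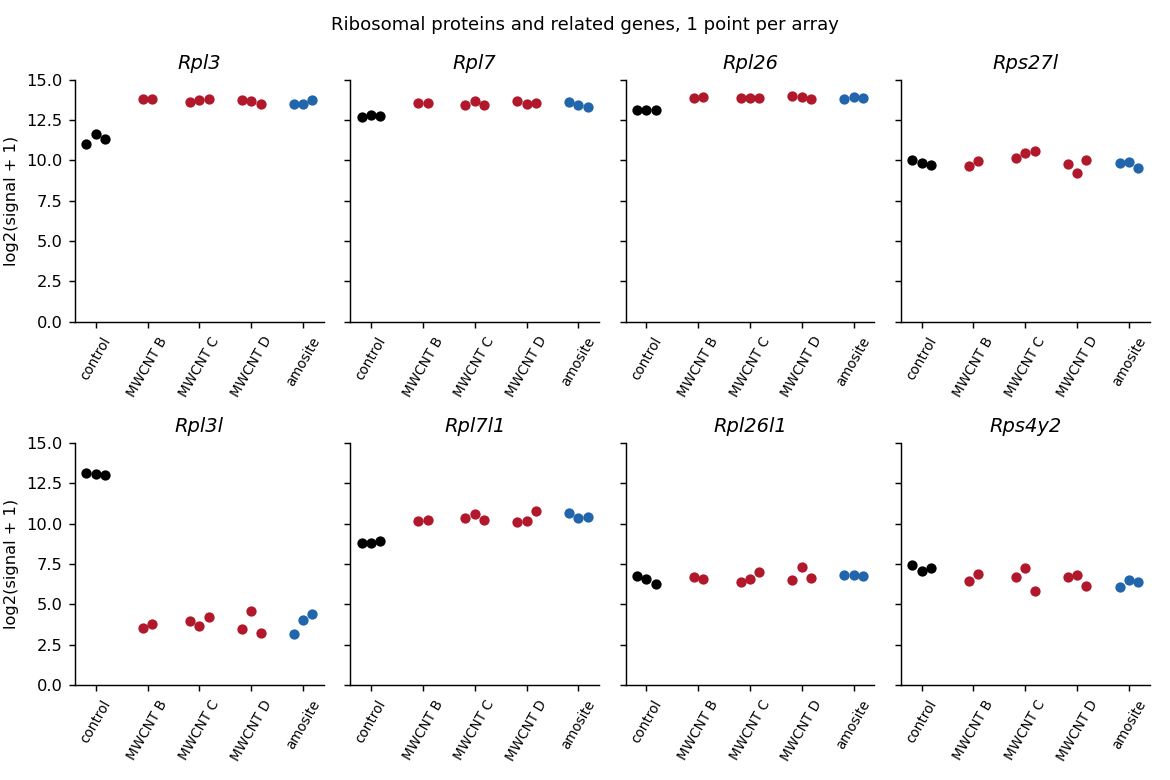
The log2(signal + 1) of 8 genes is plotted with 1 point per array in the 3 controls (black), the 8 MWCNT tumors (red) and the 3 amosite tumors (blue); heights are not comparable between genes. Rpl3 lies at 11.04 to 11.64 in control tissue and 13.50 to 13.82 across the tumors, while Rpl3l lies at 13.00 to 13.13 and at 3.13 to 4.60.

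The other relatives differed among themselves. Rpl7l1, a relative of Rpl7 that acts in the assembly of the large subunit, was at 8.81, 8.78 and 8.95 in the controls against 10.10 to 10.79 in the tumors. The groups did not overlap, and the rise was 1.52 ± 0.15, or 2.88-fold (adjusted p = 1.5e-06). Rpl7 itself rose by 0.78 ± 0.11 (adjusted p = 2.8e-05). Rpl26 rose by 0.75 ± 0.09 (adjusted p = 1.1e-05), while Rpl26l1 did not pass (0.19 ± 0.18, adjusted p = 0.37) and was at -0.26 after centring and -0.25 after quantile normalization. Rpl39 rose by 0.74 ± 0.11 (adjusted p = 5.5e-05). Its relative Rpl39l1, on the dimmest probe set of the family, was at 4.47, 5.14 and 5.04 in control tissue and 5.09 to 5.76 across the tumors, so that the groups overlapped. It rose by 0.56 ± 0.17 (adjusted p = 0.011), but was at 0.11 with an adjusted p of 0.56 after centring.

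Rps27l was at 10, 9.82 and 9.74 in the controls against 9.21 to 10.55 in the tumors. The controls lay inside the range of the tumors, and the difference of 0.06 ± 0.23 did not pass (adjusted p = 0.85). It was -0.39 after centring and -0.10 after quantile normalization. Rps4y2, a relative of Rps4x, was at 7.44, 7.09 and 7.23 in control tissue and 5.82 to 7.26 across the tumors. It fell by 0.73 on the log2 scale (SE 0.24, adjusted p = 0.019), with overlap between the groups. The call was lost when control replicate 1 was left out (-0.64 with an adjusted p of 0.093) and when control replicate 3 was (-0.75 with an adjusted p of 0.055).

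Probe sets that the annotation assigns to several genes, at least 1 of them a ribosomal protein, were not used above. Of 36 such probe sets, 35 rose and 1 did not pass, with a median difference of 0.90 (0.40 to 1.69), where 37.3% of all probe sets rose.

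Each inducer group and each tumor type was also compared with the controls, and all these comparisons share the same 3 control arrays. The genes that rose numbered 41 for MWCNT B (background 26.1%), 40 for MWCNT C (29.1%), 40 for MWCNT D (29.7%) and 38 for amosite (29.6%). The median differences were 0.91, 0.83, 0.80 and 0.77 in the same order. The genes that fell numbered 1, 1, 1 and 2 (backgrounds 12.3%, 14.5%, 14.4% and 13.8%). By type, 42 genes rose in sarcomatoid (33.9%), 40 in biphasic (31.9%) and 42 in epithelioid tumors (32.9%), with medians of 0.88, 0.73 and 0.87. The falls numbered 1, 2 and 2 (16.9%, 15% and 14.3%). A rise in all 7 groups was found for 38 genes, a count that has no background over all probe sets here. The same tumors are grouped both by inducer and by type, so the 7 results are not independent. Rpl3l fell in all 7, by 8.98 in sarcomatoid to 9.68 in epithelioid tumors on the log2 scale. Rpl3 rose in all 7, by 2.25 in amosite to 2.46 in MWCNT B tumors. Rps4y2 fell in amosite (-0.92, adjusted p = 0.041), biphasic (-1.09, adjusted p = 0.0034) and epithelioid tumors (-0.86, adjusted p = 0.013). Without the 2 tumors with pancreatic signal, the calls of Rps4y2 were lost in amosite (-0.79, adjusted p = 0.11) and epithelioid tumors (-0.70, adjusted p = 0.056). The epithelioid call was also lost when amosite replicate 1 was left out (adjusted p of 0.055) and when control replicate 1 was (adjusted p of 0.052), and the amosite call without any 1 of the amosite, control or MWCNT B arrays, MWCNT D replicate 1 or MWCNT C replicate 1 (adjusted p of 0.05 to 0.12). After centring, the rises numbered 18 for MWCNT B, 24 for MWCNT C, 18 for MWCNT D and 14 for amosite. By type they numbered 35 for sarcomatoid, 18 for biphasic and 14 for epithelioid tumors. The backgrounds above are those as deposited and do not apply to these centred counts, which have no background here. The groups also differ in size, so the counts are not compared between groups.

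Other genes of the translation machinery moved in part with the ribosomal proteins. Rack1, a ribosome-bound scaffold outside the symbol rule, rose by 0.90 (adjusted p = 6.0e-06). Of 13 other genes listed as having TOP messengers, 12 rose (37.3% of all probe sets did), with a median of 0.90. After centring 7 rose (22.4% of all probe sets did). Promoter entries matched 10 of the 13, and 0 of the 10 had a TOP start by the definition above, against 2.63% of all entries. A run of at least 8 pyrimidines near the start was found in 7 of the 10, against 19.3% of all entries. This list shares Rack1 and the elongation factors with the other lists. Examples were Hnrnpa1, a splicing factor (2.27 ± 0.19, adjusted p = 3.3e-07), Nap1l1, a histone chaperone (1.77 ± 0.18, adjusted p = 2.1e-06), and Vim, the intermediate filament protein of mesenchymal cells (1.84 ± 0.30, adjusted p = 1.5e-04). Of 10 elongation and release factors, 5 rose and 2 fell, against the 37.3% and 17.5% of all probe sets. After centring 2 of the 10 rose and 2 fell, where 22.4% of all probe sets rose.

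The isoforms of elongation factor 1A, which brings aminoacyl-tRNA to the ribosome, went in opposite directions. Eef1a1, the widely used form, was at 12.10 to 12.52 in the controls against 13.63 to 13.85 in the tumors, a rise of 1.43 ± 0.11 (adjusted p = 1.1e-07). Eef1a2, the form of muscle and neurons, was at 13.23 to 13.30 in control tissue and 8.24 to 9.09 across the tumors, a fall of -4.62 ± 0.17 (adjusted p = 2.6e-11). The groups did not overlap for either gene. A second, dim probe set of Eef1a2 did not pass (-0.27, adjusted p = 0.36), and a second probe set of Eef1a1 differed by 1.27. Eef2k, the kinase that inhibits elongation factor 2, fell by 1.71 on the log2 scale (adjusted p = 2.7e-04).

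Genes that make and assemble ribosomes were examined next. In RNA polymerase I transcription of ribosomal RNA, 10 of 16 genes rose and the other 6 did not pass, with a median of 0.72 and 5 genes over 2-fold. Of all probe sets, 37.3% rose and 24.5% rose by more than 2-fold. After centring 5 of the 16 rose and 2 fell, where 22.4% of all probe sets rose. Myc, a transcription factor that drives ribosome production, was at 6.87 to 7.35 in the controls against 9.82 to 11.17 in the tumors, a rise of 3.30 ± 0.28 (adjusted p = 3.2e-07). Taf1d and Taf1c, subunits of the selectivity factor of RNA polymerase I, rose by 1.84 ± 0.42 (adjusted p = 0.0018) and 1.46 ± 0.20 (adjusted p = 3.0e-05). Of 60 genes of pre-rRNA processing and assembly, 40 rose and 1 fell, with a median of 0.69 and 19 genes over 2-fold higher. After centring 16 of the 60 rose and 4 fell, where 22.4% of all probe sets rose. Fbl, the methyltransferase of box C/D particles, was at 9.50 to 9.60 in control tissue and 11.23 to 12.05 across the tumors, a rise of 1.98 ± 0.15 (adjusted p = 1.5e-07). Nop58, its partner in these particles, rose by 1.71 ± 0.17 (adjusted p = 1.4e-06), and the helicase Ddx51 by 1.99 ± 0.34 (adjusted p = 1.9e-04).

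Initiation factors were mixed. Of 33, 17 rose and 6 fell, with a median of 0.42, where 37.3% of all probe sets rose and 17.5% fell. After centring 6 rose and 11 fell, with a median of -0.02 against -0.10 over all probe sets. In that scaling 22.4% of all probe sets rose, and more fell than rose: of those that passed, 42.3% were higher. With quantile normalization 14 rose and 7 fell, where 24.7% of all probe sets rose and 47.7% of those that passed were higher. Eif4a1, the helicase that unwinds the messenger leader, rose by 2.15 ± 0.16 (adjusted p = 1.2e-07) and Eif5a2 by 2.75 ± 0.29 (adjusted p = 3.0e-06), while Eif3j fell by 1.63 on the log2 scale (adjusted p = 2.3e-07). Of 15 genes of mTORC1 and its TOP regulators, 1 rose and 4 fell, against the 37.3% and 17.5% of all probe sets. Both after centring and after quantile normalization 1 rose and 8 fell. In these scalings falls outnumbered rises over all probe sets as well, so the 17.5% does not apply to the 8 falls. The riser was Ddit4, an inhibitor of mTORC1 (3.20 ± 0.51, adjusted p = 1.1e-04). Tsc1 fell by 1.13 (adjusted p = 7.4e-04) and the S6 kinase gene Rps6kb1 differed by -1.95 (adjusted p = 5.0e-06). Of 7 ribosomal S6 kinase genes, 1 rose (Rps6ka4, 1.15) and 2 fell (Rps6ka2, -3.12, and Rps6kb1). In ribosome quality control and stress sensing, 4 of 14 rose and 4 fell, where 37.3% of all probe sets rose and 17.5% fell. Among the 14, Map3k20, the kinase ZAK that senses collided ribosomes, fell by 2.77 on the log2 scale (adjusted p = 5.8e-06). Eif2ak3 and Eif2ak4, kinases of the integrated stress response, rose by 1.78 and 1.67.

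Ribosomal proteins of the mitochondrion went the other way. Of 73 genes, 43 fell and 2 rose, where 17.5% of all probe sets fell and 37.3% rose. The median difference was -0.58 against 0.83 for the cytosolic genes and 0.34 for all probe sets. Mrps15 was at 11.26 to 11.42 in the controls against 8.70 to 9.96 in the tumors, a difference of -2.0 ± 0.27 (adjusted p = 3.0e-05). Mrps28 and Mrpl50 differed by -1.81 ± 0.18 and -1.59 ± 0.26 (adjusted p = 1.5e-06 and 1.5e-04). After centring 55 fell, with a median of -1.03 against -0.10 over all probe sets. With quantile normalization 45 fell, with a median of -0.74 against -0.02. More probe sets fell than rose over the whole array in both scalings, so the 17.5% as deposited does not apply there. Neither of the risers passed in these scalings. The controls are those with the muscle signal, and its part in this difference was not tested.

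**Figure D4:**
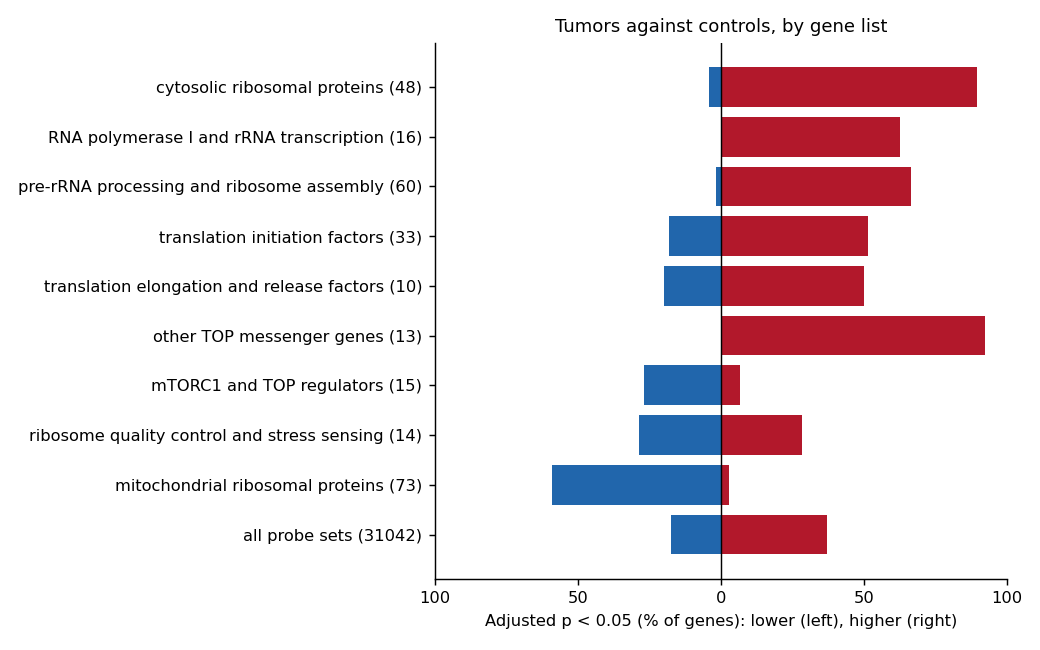
The percentage of genes in each list with an adjusted p below 0.05 is plotted for tumors against controls, lower in blue to the left and higher in red to the right, with the number of genes measured in brackets and lists under 10 genes and the anemia list left out. The cytosolic ribosomal proteins lie mostly to the right (43 of 48 higher), the mitochondrial ones mostly to the left (43 of 73 lower), and all probe sets stand at 37.3% higher and 17.5% lower.

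The MWCNT tumors were compared with the amosite tumors to ask whether the kind of fiber was reflected in these genes. No gene passed in limma at the adjusted threshold, and 0% of all probe sets passed. At an unadjusted p below 0.05 there was 1 of the 48 genes, against 4.07% of all probe sets. Differences ranged from -0.13 to 0.38, with a median of 0.07 against -0.01 over all probe sets, and 34 of the 48 were positive. For the 39 brighter genes, the 95% confidence intervals lay between -0.42 and 0.75, within 2-fold in either direction. A 2-fold difference was inside the interval for 1 gene, Rpl28.

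Rpl14, a large subunit protein, had the largest difference and the lowest p. It was at 12.51 to 13.20 with a median of 13.06 in the 8 MWCNT tumors and at 12.80, 12.63 and 12.38 in the 3 amosite tumors. The groups overlapped, and the difference was 0.38 (95% interval 0.01 to 0.75, unadjusted p = 0.045 and adjusted p = 1 in limma). Rpl5 differed by 0.35 (-0.02 to 0.71) and Rpl28 by 0.32 (-0.38 to 1.03). At the low end were Rpl7l1 (-0.13, interval -0.51 to 0.24), Rpl39 (-0.10, -0.36 to 0.16) and Rpl26l1 (-0.08, -0.50 to 0.34). In 1 gene, Rpl4, every MWCNT tumor lay above every amosite tumor (0.48% of all probe sets did so). Rpl4 was at 13.37 to 13.64 in the MWCNT tumors and at 13.31, 13.09 and 13.16 in the amosite tumors, a difference of 0.25 (-0.01 to 0.51). Rpl3 and Rpl3l differed by 0.13 (-0.15 to 0.40) and -0.05 (-0.75 to 0.65).

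**Figure D5:**
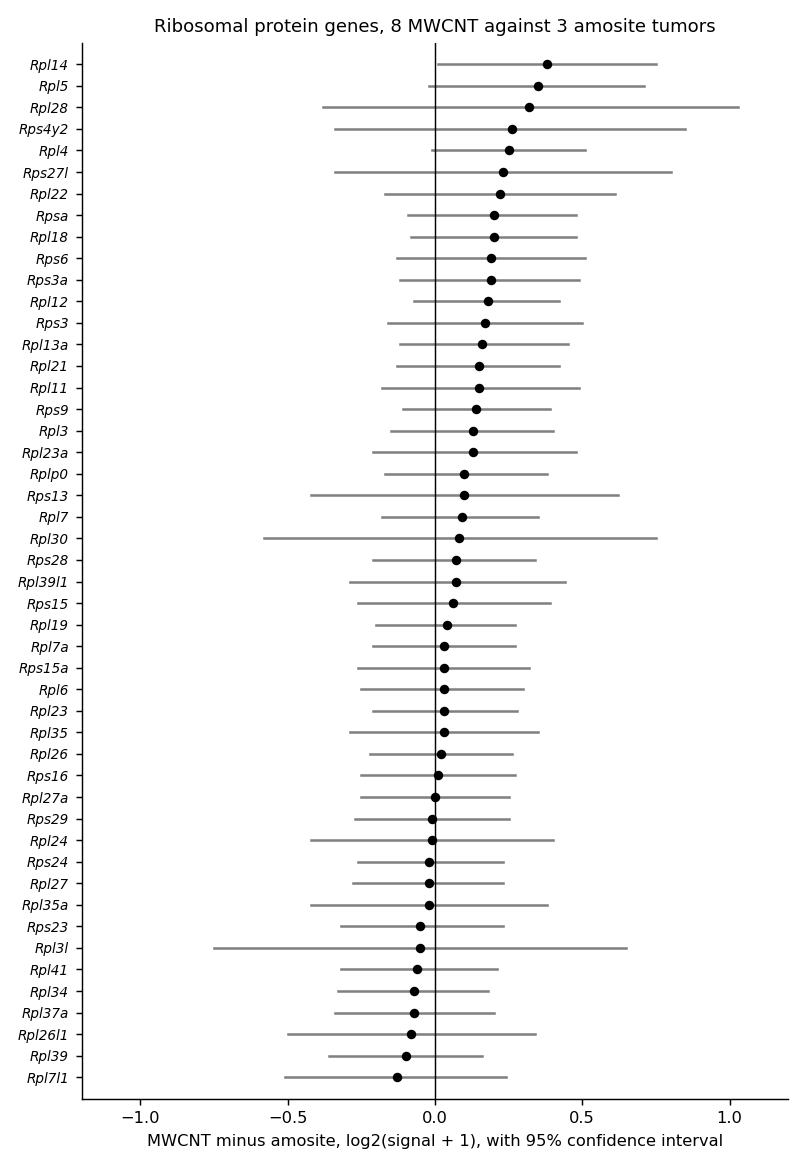
The MWCNT minus amosite difference in log2(signal + 1) is plotted for the 48 genes, ranked, with 95% confidence intervals from limma. The differences run from -0.13 to 0.38, and the interval includes 0 for 47 genes.

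Tumor types were compared with each other in the same way, and no gene passed in limma at the adjusted threshold. Between sarcomatoid and epithelioid tumors 1 of 48 genes had an unadjusted p below 0.05 (13.3% of all probe sets, with 0.818% past the adjusted threshold), between sarcomatoid and biphasic tumors 4 (9.28% and 0.251%), and between biphasic and epithelioid tumors 1 (4.99% and 0%). The median differences were 0.03, 0.10 and -0.07, and 0.20, 0.17 and 0.03 after centring, so that the last changed sign. The largest differences belonged to dim probe sets. Rpl28 had a mean of 6.15 ± 0.34 (SD, n = 5) in sarcomatoid, 5.41 ± 0.27 (n = 3) in biphasic and 6.30 ± 0.46 (n = 3) in epithelioid tumors. It was 0.74 higher in sarcomatoid than in biphasic tumors (95% interval 0.23 to 1.26, adjusted p = 0.31), and biphasic minus epithelioid was -0.89 (-1.47 to -0.32, adjusted p = 0.95). Rps4y2 differed by 0.64 (0.16 to 1.12, adjusted p = 0.35) between sarcomatoid and biphasic tumors. Rpl3l, low in all tumors, was at 4.08 ± 0.41 in sarcomatoid and 3.38 ± 0.22 in epithelioid tumors, a difference of 0.70 (0.13 to 1.26, adjusted p = 0.28). Among the brighter genes, Rpl24 had 0.39 (0.06 to 0.72, adjusted p = 0.42) between sarcomatoid and biphasic tumors and -0.34 (-0.70 to 0.03) between biphasic and epithelioid tumors. Rpl23a differed by 0.26 (-0.03 to 0.54) and Rpl37a by -0.14 (-0.40 to 0.13) between sarcomatoid and epithelioid tumors. For all 39 brighter genes the intervals of the 3 comparisons lay between -0.78 and 0.72.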

How the data were processed

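The authors hybridized RNA of 11 tumors and 3 control tissues to an Affymetrix 3' expression array for the whole rat genome, and computed normalized intensities by PLIER, using the Transcriptome Analysis Console, ahead of deposition. The deposited intensity table is linear, holds 31099 probe sets from 4.12e-05 to 802576, and has no detection calls, so no level can be called absent. There were 0 value columns left unused. The 57 Affymetrix controls were removed, and limma 3.58.1 (R 4.3.3) was fitted to log2(signal + 1) of the other 31042 probe sets. Every p is a moderated p of limma, and adjusted p-values are Benjamini-Hochberg values over that whole table. There were 12 comparisons. A gene passed at an adjusted p below 0.05, whatever its fold. The array annotation gave 20826 probe sets 1 gene symbol, 436 several and 9780 none. The ribosomal protein genes and all gene lists were chosen with earlier results of these data known. Genes named are the 10 largest rises and all falls that passed between tumors and controls, the 3 largest differences each way in comparisons among tumors, relatives of another ribosomal protein, 10 genes of known further roles, and up to 3 genes of each list past 2-fold. Start sites came from RefSeq (GRCr8). The method was tested on simulated data. The number of arrays limits the precision.

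Alternatives were centring of each array on its median, quantile normalization, log2(signal + 16), a mean log2 signal of at least 6, eBayes with trend and robust fit, the replicate number as a block, the mean over a gene's probe sets, leaving out each array or the 2 tumors with pancreatic signal, covariates and other sets of arrays in the fit. Replicate numbers are those of biological replicates in the labels, and groups with the same number had different inducers. Deviations from the group mean correlated from -0.29 to 0.39 in 26 same-numbered pairs of arrays, with a median of 0.02, so the numbers were not taken to pair the samples. No pair of arrays correlated above 0.975, and none was a duplicate. Figures were drawn with matplotlib 3.10.9.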

Additional observations from a re-analysis of the deposited data

Results flagged for a closer look

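In each group of 4 to 10 arrays, the named genes were searched for 1 array that stood apart by Dixon's criterion at 95%. Of 60 such groups, 6 held such an array. Chance gives about 1 in 20 for independent groups, but these groups share arrays, so the count is a description. MWCNT D replicate 2, a sarcomatoid tumor, gave 3 of them, on 2 dim probe sets. For Rpl30 it was at 7.52, below the other MWCNT tumors at 8.61 to 9.08 and the other sarcomatoid tumors at 8.89 to 9.08. For Rps13 it was at 7.36, above the other MWCNT tumors at 6.28 to 6.74. Pancreatic enzymes held 3.96% of the signal on this array, and their part in these values was not tested. Without it the tumor minus control difference was 1.54 for Rpl30 and 1.23 for Rps13.

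Amosite replicate 3 was the lowest sarcomatoid tumor for Rpl14, at 12.38 against 13.03 to 13.20, and for Rpl23a, at 13.10 against 13.33 to 13.40. MWCNT C replicate 1 was the lowest sarcomatoid tumor for Rpl6, at 13.53 against 13.65 to 13.70.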

How the results depend on the processing

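Of 642 counts and medians under alternative settings, 595 stayed close to the value as deposited and 47 moved. Each gene was followed in the comparisons for which the naming rule chose it. Among these values and the medians of single groups, 1825 were the same, 18 moved, 5 lost their call and 9 reversed. The 5 lost calls were all in tumors against controls, and leave out those of Rps4y2 in single groups and of Rpl39l1. Of all 43 genes that rose in tumors, 15 did not pass after centring, most of them not chosen by the naming rule for that comparison. The scaling of the arrays had the largest effect. After centring of each array, the genes that rose in tumors numbered 28, those over 2-fold 2 higher and 2 lower, and the median was 0.38. With quantile normalization 32 rose and 2 fell by more than 2-fold, and the median was 1.10. Against controls, centring left 18 rises for MWCNT B, 24 for MWCNT C, 18 for MWCNT D, 14 for amosite, 18 for biphasic and 14 for epithelioid tumors, and it gave 2 falls for MWCNT C, MWCNT D and sarcomatoid tumors, as did quantile normalization. These counts of single groups have no background over all probe sets here. Medians of the single groups against controls were 0.27 to 0.50 after centring and 1.01 to 1.22 after quantile normalization. After centring the median between tumor types was 0.20 for sarcomatoid against epithelioid and 0.03 for biphasic against epithelioid tumors. A mean log2 signal of at least 6 removed Rpl3l, Rpl28 and Rpl39l1, so that falls numbered 1 in all tumors, amosite, biphasic and epithelioid tumors and 0 (limma) in MWCNT B, C and D and sarcomatoid tumors, and falls over 2-fold numbered 0. Without the 2 tumors with pancreatic signal, amosite and epithelioid tumors had 1 fall each. When each array was left out in turn, rises in all tumors numbered 41 to 43, and falls 1 to 2 in all tumors and in MWCNT C, MWCNT D, amosite, sarcomatoid and epithelioid tumors.

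Rps27l went from 0.06 to -0.39 after centring and -0.10 after quantile normalization, and ranged from -0.01 (without MWCNT C replicate 3) to 0.13 (without MWCNT D replicate 2) when each array was left out. Rpl26l1 went to -0.26 and -0.25 under these scalings. Between sarcomatoid and epithelioid tumors, Rpl28 went to 0.03 after centring, 0.03 after quantile normalization, ranged from -0.29 (without amosite replicate 1) to 0.11 (without MWCNT D replicate 1) when each array was left out, and Rpl37a went to 0.04 after centring. The cause was not tested. With the replicate number as a replicate block, 43 genes rose and 2 fell in tumors, with a median of 0.82, and no other call changed. Of the 26 same-numbered pairs of arrays, 6 correlated above 0.1. The comparison of MWCNT with amosite tumors gave 0 genes past the adjusted threshold of limma under every setting run, and 1 at an unadjusted p below 0.05 as deposited. Probe set signals carry no read depth, and the number of arrays sets the precision.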
